A study of Mus musculus with 2 samples.

Results

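The mitochondrial ribosomal protein genes are the nuclear genes whose products, together with ribosomal RNA made inside the organelle, build the ribosome of mitochondria. They were taken as every gene column whose symbol is Mrpl or Mrps followed only by a number, which gave 75 of 25663 genes, 49 named Mrpl for the large subunit and 26 named Mrps for the small one. All 75 passed the minimum mean level of 0.05 used for comparisons. Transcripts were measured in single epithelial cells of the small intestine of mouse embryos at E18.5 (embryonic age in days after mating), shortly before birth, with a droplet method that reads the 3′ end of each transcript and counts molecules by unique molecular identifiers (UMIs). There was 1 Tet3 knockout library and 1 Control library, each from a pool of cells of 2 embryos. The knockout lacks exon 5 of Tet3, an oxidase of methylated cytosine, in the whole embryo, because the allele was made in embryonic stem cells. Controls are called wild type in the protocol, and both libraries carry the strain label C57BL6/J, with the knockout line backcrossed for at least 5 generations. Cells of both were sorted and fixed in methanol.

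The deposited table holds 11871 cells whose barcodes end in 0 (5933 cells, here set 0) or 1 (5938 cells, here set 1). No label ties a set to a genotype, so the table was treated as 1 pooled sample, no knockout was compared with a Control, and no p-value is given for any difference between cells. The sets serve as a check that a difference between kinds of cell appears in both. The sets share 818 barcodes, whose cells held a median of 51369 UMIs in set 0 and 13596 UMIs in set 1. They were left out of set 1, which keeps 5120 cells; values over all cells include them. A cell held a median of 22382 UMIs (1153 to 250630) and 4411 detected genes, and a median of 178 UMIs of the 75 genes. The cells carried epithelial markers (Epcam 13.1 CP10K), with summed immune markers at 0.00484, mesenchymal markers at 0.137 and erythroid markers at 0.163 CP10K. CP10K, the unit throughout, is a gene's UMIs per 10000 UMIs of a cell; it is a share of the cell's transcripts and does not show how many molecules a cell holds.

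Mitochondrial ribosomes translate the 13 proteins encoded by mitochondrial DNA, all of them subunits of the respiratory chain or of the ATP synthase. The mitochondrial ribosome has more protein relative to RNA than the ribosome of the cytosol or of bacteria, and many of its proteins have no bacterial counterpart. In the gut epithelium, dividing cells of the intervillus region give rise to absorptive enterocytes and to secretory cells such as goblet cells, which make mucus. Fabp1, the liver-type fatty acid binding protein, marks enterocytes of the proximal intestine; Fabp6 binds bile acids in ileal enterocytes; Mki67 and Top2a mark dividing cells; and Muc2, Fcgbp and Spink4 mark goblet cells.

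Promoters are shown for genes named in the results below. Mrpl12 is the member with the highest level, and Mrps22 and Mrps27 were among those with the largest differences between kinds of cell. Mrps36 went the other way by Mki67+Top2a, and Mrps21 lay on the same side as Mrps36 there but short of 1.5-fold. Each promoter is the run of 250 bases before the start of the gene, read 5′ to 3′ on the gene's strand, from RefSeq on build GRCm38.p6. Capitals mark the letters of a searched motif: the NRF1 motif in Mrpl12 and Mrps21, the ETS motif in Mrps22 and Mrps27 (in Mrps27 on the other strand) and the CCAAT box on the other strand in Mrps36. Mrpl12 lies at chr11:120484387-120484636 on the plus strand, Mrps22 at chr9:98601680-98601929 on the minus strand, Mrps27 at chr13:99344536-99344785 on the plus strand, Mrps21 at chr3:95871515-95871764 on the minus strand and Mrps36 at chr13:100744660-100744909 on the minus strand.
Mrpl12: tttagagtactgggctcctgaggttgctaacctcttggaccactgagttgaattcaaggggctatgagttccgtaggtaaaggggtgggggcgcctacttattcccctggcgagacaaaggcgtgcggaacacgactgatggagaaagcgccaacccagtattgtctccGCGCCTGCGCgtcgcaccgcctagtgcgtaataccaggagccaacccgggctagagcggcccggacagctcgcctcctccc
Mrps22: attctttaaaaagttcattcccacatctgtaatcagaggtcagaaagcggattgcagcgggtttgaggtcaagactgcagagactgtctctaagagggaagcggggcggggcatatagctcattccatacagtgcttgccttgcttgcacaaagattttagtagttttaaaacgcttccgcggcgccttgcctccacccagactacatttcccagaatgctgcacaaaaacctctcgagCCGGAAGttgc
Mrps27: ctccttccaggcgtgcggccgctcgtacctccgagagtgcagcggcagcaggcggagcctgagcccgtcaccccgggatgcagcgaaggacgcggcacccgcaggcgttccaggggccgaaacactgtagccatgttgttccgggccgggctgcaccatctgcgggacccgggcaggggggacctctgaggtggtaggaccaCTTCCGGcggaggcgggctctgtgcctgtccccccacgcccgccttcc
Mrps21: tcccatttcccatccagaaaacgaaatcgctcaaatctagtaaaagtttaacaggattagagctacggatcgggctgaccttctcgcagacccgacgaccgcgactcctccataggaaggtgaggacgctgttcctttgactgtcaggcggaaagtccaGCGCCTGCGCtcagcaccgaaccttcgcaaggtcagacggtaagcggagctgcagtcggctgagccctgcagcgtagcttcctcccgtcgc
Mrps36: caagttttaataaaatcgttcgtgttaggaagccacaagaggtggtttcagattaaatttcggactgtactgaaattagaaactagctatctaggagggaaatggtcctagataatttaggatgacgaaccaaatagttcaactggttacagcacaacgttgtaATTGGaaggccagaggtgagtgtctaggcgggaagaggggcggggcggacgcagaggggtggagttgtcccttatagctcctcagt

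A RefSeq promoter was matched by symbol for 66 of the 75 members, and Mrpl4, Mrpl13, Mrpl15, Mrpl19, Mrpl38, Mrpl54, Mrps28, Mrps34 and Mrps35 had none in the table used. In the window from 250 bases before to 50 after the start, on both strands, the ETS motif CCGGAAG stood in 23 members (34.8%), against 9.93% of 27025 genes. The NRF1 motif (GCGC, any base, TGCGC) stood in 13 members (19.7%), against 5.19% of genes, and the YY1 motif AANATGGCG in 10 members (15.2%), against 2.76%. The CCAAT box CCAAT was as frequent in members (26 of 66, 39.4%) as in all genes (41.1%), and the E-box CACGTG stood in 4 members (6.06%), against 8.09%. The 27025 genes are all those with a promoter in the table used, whether or not they were detected in these cells. Shares among the 9061 genes past the minimum level, which all members pass, were not computed. Motifs were searched separately, so matches of different motifs may overlap. Of the members that were higher in cycling cells by the rule given below, 33 had a promoter, and 11 of these held the ETS motif and 6 the NRF1 motif, against 12 and 7 of the other 33 members; YY1 stood in 7 and 3, and CCAAT in 16 and 10.

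Mean levels of single members over all cells ran between 0.115 CP10K (Mrps2, a small subunit protein with a bacterial counterpart) and 4.72 CP10K (Mrpl12, a stalk protein of the large subunit), with a median of 0.878. The sum was 81.5 CP10K, against 1426 CP10K for the cytosolic ribosomal proteins and 515 CP10K for the proteins encoded by mitochondrial DNA. After Mrpl12, the members with the highest means were Mrps36 (3.35 CP10K), Mrpl34 (3.07), Mrps34 (2.99), Mrpl51 (2.82), Mrps24 (2.27), Mrpl54 (2.20), Mrpl28 (2.10), Mrpl30 (2.09) and Mrps16 (2.03 CP10K), and these 10 made up 33.9% of the sum. At the low end, next to Mrps2, were Mrps27 (0.156 CP10K), Mrpl44 (0.193), Mrpl37 (0.232) and Mrpl47 (0.235 CP10K). Mean levels were at least 1 CP10K for 29 members and below 0.5 CP10K for 19. Mrpl12 was detected in 99.4% of cells and Mrps2 in 23.9%, and no cell lacked all 75. Most ribosome proteins are present in equal number, Mrpl12 in several copies, while these 3′-end counts, which are not scaled by length, spread over a wide range. Mrps30, which sits in the large subunit despite its symbol, averaged 0.358 CP10K, and Mrpl58, a peptidyl-tRNA hydrolase built into the large subunit, 0.955 CP10K. Mrps36 is known as a subunit of the 2-oxoglutarate dehydrogenase complex of the citric acid cycle and is not counted as a ribosome subunit today; it stays among the 75 because its symbol fits.

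The sum of the 75 genes was higher in cells with cell cycle transcripts and lower in cells with absorptive transcripts, in both sets. Over the steps of Mki67+Top2a it averaged 77.0 CP10K at 0 (9660 cells), 96.1 CP10K above 0 to 2 (1296 cells) and 109 CP10K above 2 (915 cells). In set 0 these steps gave 73.4, 93.7 and 107 CP10K, and in set 1 81.3, 99.1 and 111 CP10K, so each set climbed at each step. Over the steps of Fabp1 the sum averaged 92.9 CP10K below 40 (4093 cells), 86.0 CP10K from 40 to 100 (1136 cells) and 73.7 CP10K above 100 (6642 cells). In set 0 it was 88.9, 80.0 and 71.1 CP10K, and in set 1 98.3, 91.7 and 76.4 CP10K. Over the steps of Fabp6 the sum averaged 85.4 CP10K below 10 (9454 cells), 69.7 CP10K from 10 to 50 (1103 cells) and 63.6 CP10K above 50 (1314 cells). Set 0 gave 83.8, 68.8 and 63.1 CP10K and set 1 gave 86.6, 69.7 and 57.5 CP10K; the last value rests on 27 cells, against 1108 in set 0. Counting error was small beside these gaps: from summed UMIs, the level was 110 CP10K above 2 for Mki67+Top2a (exact Poisson 95% interval 109 to 110.0, counting error only) and 76.7 CP10K at 0 (76.6 to 76.8).

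Over all cells, goblet genes divided the cells less clearly, and the gap depended on which cells were compared. The sum averaged 81.8 CP10K with Muc2+Fcgbp+Spink4 below 5 (11602 cells), 71.3 CP10K from 5 to 30 (172 cells) and 67.2 CP10K above 30 (97 cells). In set 0 the highest and the lowest step gave 64.8 and 78.4 CP10K, and in set 1 70.8 and 85.8 CP10K. Cells above 30 were shallower, with a median of 12103 UMIs, against 22418 below 5, and they also held Paneth cell markers at 37.8 CP10K summed over 6 genes, against 0.0436 CP10K below 5. Among cells with 15000 to 30000 UMIs the log2 ratio of the sum was -0.09, against -0.28 in all cells. The gap was wider among cells with Fabp1 below 40, Fabp6 below 10 and Mki67+Top2a at 0. There the sum averaged 64.0 CP10K above 30 (41 cells) and 92.1 CP10K below 5 (1676 cells). These averages were 58.4 and 93.5 CP10K in set 0 and 71.2 and 91.3 CP10K in set 1. Here too the cells above 30 were shallower, with a median of 9954 UMIs, against 18571. From summed UMIs the gap was smaller, at 71.2 and 91.0 CP10K. It was 66.9 and 93.4 CP10K in set 0 and 76.8 and 89.7 CP10K in set 1.

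**Figure D1:**
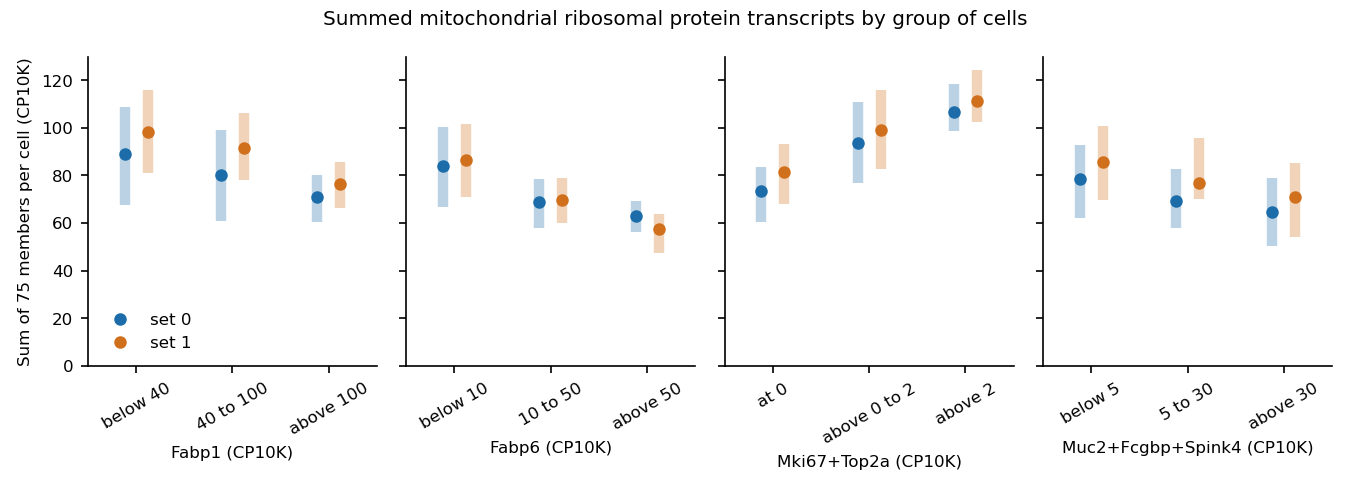
Sum of the 75 mitochondrial ribosomal protein genes per cell (y axis, CP10K) in the steps of the 4 grouping genes or sums (x axes, CP10K), for set 0 (blue) and set 1 (orange, without shared barcodes). Points are means over cells and bars span the lower to the upper quartile of cells; the means climb with Mki67+Top2a, to 107 in set 0 and 111 in set 1, and are lower at each higher step of Fabp1 and Fabp6.

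Member by member, the cell cycle comparison was the broadest. A member was counted as higher or lower where its mean differed by at least 1.5-fold in all cells and, on the same side, in each set, with 0.01 added to each mean. With Mki67+Top2a above 2 over 0, 38 of 75 members were higher and 1 was lower, against 21.0% and 19.5% of the 9061 genes past the minimum level. The median log2 ratio of the members was 0.66, against 0.03 over all those genes, and 72 members lay above 0. These counts and medians describe the list and carry no test. Among cells with Fabp1 below 40 and Fabp6 below 10 alone, 4 members were higher and 0 lower, against 9.49% and 16.9% of all genes there, and the log2 ratio of the sum was 0.29, against 0.49 in all cells. The 38 comprised 23 of 49 Mrpl and 15 of 26 Mrps members. By kind of subunit, they were 9 of 15 small subunit proteins of families shared with bacteria, 5 of 9 small subunit proteins without a bacterial counterpart, 16 of 29 large subunit proteins of shared families and 8 of the 21 other large subunit proteins, the last of which include Mrps30.

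Mrpl13, a large subunit protein of a family shared with bacteria, had the highest ratio. It averaged 1.34 CP10K above 2 and 0.469 CP10K at 0 (log2 ratio 1.5). In set 0 it averaged 1.33 and 0.393 CP10K (1.74), and in set 1 1.38 and 0.562 CP10K (1.28), so the gap appeared in both. Mrps22, a small subunit protein found in mitochondria but not in bacteria, averaged 0.894 and 0.325 CP10K (1.43), with 1.46 in set 0 and 1.44 in set 1. Mrpl38, of the large subunit, averaged 1.14 and 0.475 CP10K (1.24; 1.39 in set 0 and 1.06 in set 1). Mrps5, a small subunit protein shared with bacteria, averaged 0.736 and 0.307 CP10K (1.24; 1.46 and 0.98 in the sets). Mrps27, a small subunit protein with pentatricopeptide repeats, averaged 0.316 and 0.130 CP10K (1.22; 1.32 and 1.07). Thus the 5 members with the highest ratios came from both subunits. Mrpl12 averaged 6.36 CP10K above 2 and 4.46 CP10K at 0 (0.51), short of 1.5-fold in all cells, and Mrpl23, a gene beside the imprinted H19 region, 1.66 and 1.48 CP10K (0.16).

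Mrps36 was the 1 member lower in cells with Mki67 and Top2a. It averaged 3.51 CP10K at 0, 2.97 CP10K in the middle step and 2.16 CP10K above 2 (log2 ratio of the last over the lowest step -0.70). In set 0 the highest and lowest step gave 2.12 and 3.61 CP10K (-0.76), and in set 1 2.18 and 3.38 CP10K (-0.63). With totals that leave out mitochondrial, ribosomal protein and haemoglobin genes, a scaling that moved the median of all genes by 0.15, its ratio was -0.54, short of 1.5-fold. Mrps21, a small subunit protein, averaged 1.42 and 1.69 CP10K (-0.25), and Mrpl34, a short protein of the large subunit, 2.96 and 3.06 CP10K (-0.05); neither differed by 1.5-fold. Mrps16 (0.03), Mrpl27 (0.04) and Mrpl45 (0.06) had ratios close to 0.

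**Figure D2:**
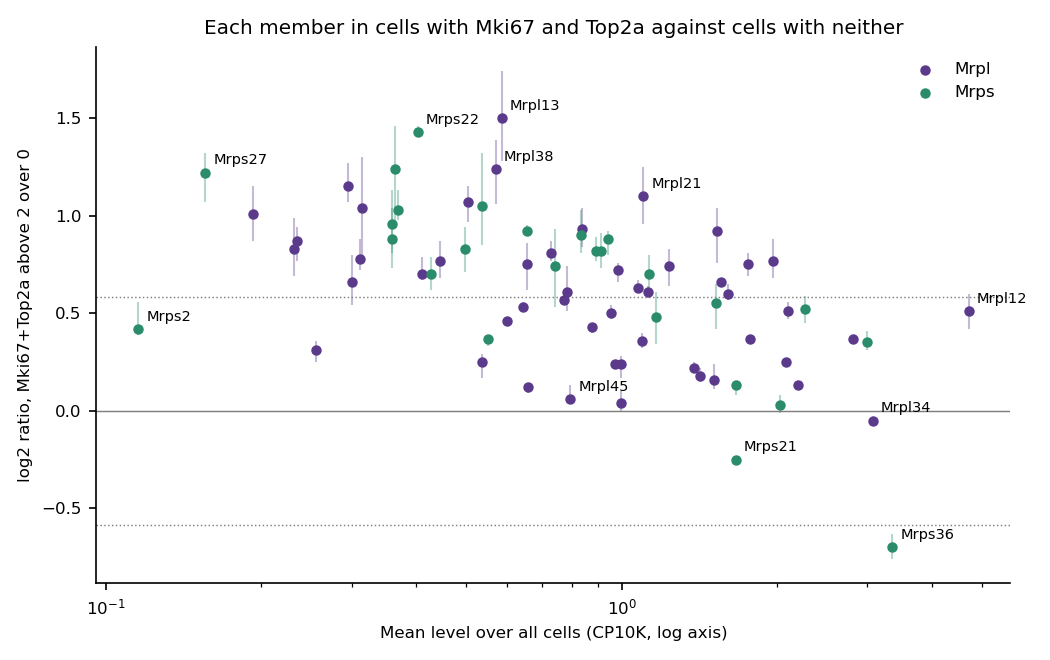
Log2 ratio of each member with Mki67+Top2a above 2 over 0 (y axis) against its mean level over all cells (x axis, CP10K, log scale), with Mrpl members in purple and Mrps members in green. Points are ratios in all cells, vertical lines join the ratios of set 0 and set 1, and dotted lines mark 1.5-fold; Mrpl13 stands highest at 1.5 and Mrps36 lowest at -0.70.

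By Mki67+Top2a, Fabp1 and Fabp6, members with lower levels had the larger ratios. Of the 37 members below the median level, 25 were higher with Mki67+Top2a above 2 (median log2 ratio 0.83), against 13 of the 38 members at or above it (0.49). The same division appeared for Fabp1, where 18 of the 37 and 7 of the 38 were lower (medians -0.62 and -0.24). It also appeared for Fabp6, where 20 and 3 were lower (-0.72 and -0.35). By goblet genes the order of the medians was the reverse (-0.16 and -0.39), with 1 and 3 members lower and 1 and 1 higher. No such split by level is given for all genes. With a minimum level of 0.5 CP10K in place of 0.05, which leaves out 19 members, 23 members were counted in the cell cycle comparison. All of these were higher except Mrps36. Of the 2606 genes past that minimum, 17.7% were higher and 26.5% lower. The ratio of summed Mrpl to summed Mrps levels moved little, at 2.13 with Mki67+Top2a above 2 and 2.01 at 0, and at 2.01 with Fabp1 above 100 and 2.06 below 40.

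In cells with Fabp1 above 100 over cells below 40, 25 of 75 members were lower and 0 higher, against 21.1% and 7.66% of all genes. The members' median was -0.52, against -0.20 over all genes, and 70 members lay below 0. The 5 lowest were Mrps22, Mrpl38, Mrpl13, Mrps27 and Mrps28. Mrps22 averaged 0.258 CP10K above 100 and 0.623 CP10K below 40 (log2 ratio -1.24; -1.18 in set 0 and -1.33 in set 1). Mrpl38 averaged 0.368 and 0.875 CP10K (-1.23), Mrpl13 0.381 and 0.892 CP10K (-1.21), and Mrps27 0.0985 and 0.237 CP10K (-1.19). Mrps28, a small subunit protein, averaged 0.353 and 0.793 CP10K (-1.15). Cells of both sets were on the same side for each of these. At the other end, Mrps36 averaged 3.78 CP10K above 100 and 2.70 CP10K below 40 (0.48), short of 1.5-fold, followed by Mrpl34 (0.18), Mrps16 (0.10), Mrps21 (0.06) and Mrpl43 (0.05). This comparison and that by Mki67+Top2a share cells, since 737 of the 915 cells with Mki67+Top2a above 2 had Fabp1 below 40 and the other grouping genes in their lowest step. In cells with Mki67+Top2a at 0 and goblet genes below 5, 13 members were lower and 0 higher by Fabp1, against 14.9% and 5.15% of all genes there.

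In cells with Fabp6 above 50 over cells below 10, 23 members were lower and 0 higher, against 9.46% and 4.87% of all genes, with a median of -0.54, against 0.00. Mrpl13 averaged 0.272 CP10K above 50 and 0.655 CP10K below 10 (log2 ratio -1.24), Mrps28 0.252 and 0.591 CP10K (-1.20) and Mrpl47 0.116 and 0.261 CP10K (-1.10). Mrps5 averaged 0.186 and 0.403 CP10K (-1.07) and Mrpl3, a large subunit protein near the catalytic centre in bacteria, 0.163 and 0.349 CP10K (-1.06). In set 0 and set 1 these ratios were -1.23 and -1.81 for Mrpl13, -1.04 and -1.52 for Mrps28, and -1.02 and -1.06 for Mrpl47. They were -1.07 and -0.79 for Mrps5, and -0.97 and -1.48 for Mrpl3. The set 1 ratios rest on 27 cells above 50. Mrps21 averaged 1.88 and 1.63 CP10K (0.21), but the ratio was 0.03 within set 0 and 0.01 within set 1, and set 0 holds 1108 of the 1314 cells above 50. Mrpl45 (0.00), Mrps36 (-0.01), Mrpl23 (-0.05) and Mrpl54 (-0.11) had ratios close to 0. Among cells with Fabp1 at or above 40, 5 members were lower and 0 higher by Fabp6, against 3.66% and 4.38% of all genes in those cells.

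The 3 comparisons pointed to overlapping members, as they share cells. Counted in all of them were 13 members (17.3%, against 7.24% of all 9061 genes in the same directions): Mrpl3, Mrpl11, Mrpl13, Mrpl21, Mrpl38, Mrpl49, Mrpl50, Mrps5, Mrps10, Mrps22, Mrps25, Mrps27 and Mrps28. A further group of 32 members was counted in none in these directions (42.7%, against 73.6% of all genes), among them Mrpl12, Mrpl34, Mrps34, Mrpl51, Mrpl54 and Mrps16. In the GENCODE M21 annotation, exons of Gm42688, Mir3098 and Nme3 reach into the last 500 bases of Mrpl53, Mrpl51 and Mrps34, respectively, on the same strand. The length of overlap was not measured, so whether counts of these members include those genes is not known. In the same window Mrpl10, Mrpl12, Mrpl19, Mrpl24, Mrpl49, Mrps7, Mrps25 and Mrps34 overlap with a gene on the opposite strand. No source used here states whether counting used strand.

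In cells with goblet genes above 30 over cells below 5, 2 members were higher and 4 lower, against 17.1% and 13.7% of all genes, which is below the background in both directions. Mrpl52, of the large subunit, averaged 2.72 CP10K above 30 and 1.52 CP10K below 5 (log2 ratio 0.84; 0.89 in set 0 and 0.79 in set 1). Mrps10, of the small subunit, averaged 0.614 and 0.367 CP10K (0.73; 0.82 and 0.62 in the sets). The lower members were Mrps36 with 1.67 and 3.37 CP10K (-1.0), Mrpl22 with 0.229 and 0.411 CP10K (-0.82), Mrpl41 with 0.548 and 0.976 CP10K (-0.82) and Mrpl34 with 1.92 and 3.09 CP10K (-0.68). Mrpl50 (-0.72) was short of 1.5-fold in set 0, and the next higher members, Mrpl37 (0.48), Mrps27 (0.45) and Mrpl1 (0.21), were short of it in all cells. These values rest on 54 cells of set 0 and 39 of set 1. Above 30, Mrpl22 had 43 UMIs in all and Mrps10 had 74. From summed UMIs, Mrpl52 (2.53 and 1.52 CP10K) and Mrps36 (1.98 and 3.47 CP10K) stayed past 1.5-fold in all cells. Short of it were Mrps10 (0.514 and 0.364), Mrpl22 (0.295 and 0.417), Mrpl41 (0.660 and 0.986) and Mrpl34 (2.09 and 3.11 CP10K).

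Cells were also crossed into classes, which are ranges of these genes and not cell types. Cycling cells had Mki67+Top2a above 2 and all other grouping genes in their lowest step; quiet cells had every grouping gene in its lowest step; and Fabp1-high, Fabp6-high and goblet-gene cells had Mki67+Top2a at 0 and only the named gene or sum in its highest step. The sum averaged 64.0 CP10K in goblet-gene cells (58.4 in set 0 and 71.2 in set 1; 41 cells). It was 65.4 CP10K in all 494 Fabp6-high cells and 64.7 CP10K in the 436 of set 0; the others were set 1 cells with shared barcodes, so set 1 held 0 once these were left out. It was 61.7 CP10K in cells high for both Fabp1 and Fabp6 (501 cells). Fabp1-high cells averaged 75.4 CP10K (73.2 and 76.9; 5049 cells), cycling cells 113 CP10K (111 and 115; 737 cells) and quiet cells 92.1 CP10K (93.5 and 91.3; 1676 cells). Cycling cells were thus highest and quiet cells next in both sets. The classes still differed in transcripts that did not define them: the 6 enterocyte markers summed to 916 CP10K in Fabp1-high cells, 46.1 CP10K in cycling cells and 164 CP10K in quiet cells, where Apoa1 alone averaged 76.8 CP10K. Their part in the members' levels was not tested.

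In cycling cells over quiet cells, 5 members were higher and 0 lower, against 9.70% and 17.2% of all genes, with a median of 0.35, against -0.07, so the count is below the background while 70 members lay above 0. The 5 were Mrpl13, Mrpl18, Mrpl47, Mrpl49 and Mrps22. Mrpl13 averaged 1.44 CP10K in cycling and 0.805 CP10K in quiet cells (log2 ratio 0.83; 0.83 in set 0 and 0.85 in set 1), and Mrps22 0.970 and 0.567 CP10K (0.76; 0.59 and 0.94). In Fabp1-high over quiet cells 16 were lower and 0 higher, against 16.6% and 6.40% of all genes, with a median of -0.45, against -0.23. Mrpl38 averaged 0.381 CP10K in Fabp1-high cells and 0.851 CP10K in quiet cells (-1.14; -1.44 in set 0 and -0.90 in set 1). In Fabp1-high over cycling cells 47 were lower and 1 higher, against 27.2% and 21.2%, with a median of -0.80, against -0.11. Mrps22 (-1.85) and Mrpl13 (-1.83) were lowest there, and Mrps36 was the 1 higher member, with 3.83 CP10K in Fabp1-high and 2.06 CP10K in cycling cells (0.89; 1.0 in set 0 and 0.77 in set 1).

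In Fabp6-high over Fabp1-high cells, in set 0 alone, 0 members were higher and 1 lower past 1.5-fold, against 16.2% and 6.52% of all genes, with a median log2 ratio of -0.09, against 0.22 over all genes. The lower member was Mrpl47 (-0.88). In Fabp6-high over cycling cells of set 0, 54 were lower and 1 higher, against 26.8% and 30.8%, with a median of -0.98, against 0.04 over all genes. In goblet-gene over quiet cells 17 were lower and 0 higher, against 16.7% and 12.0%. The median was -0.60, against -0.08, and rests on 41 goblet-gene cells. Those cells held a median of 9954 UMIs, against 18571 in quiet cells.

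**Figure D3:**
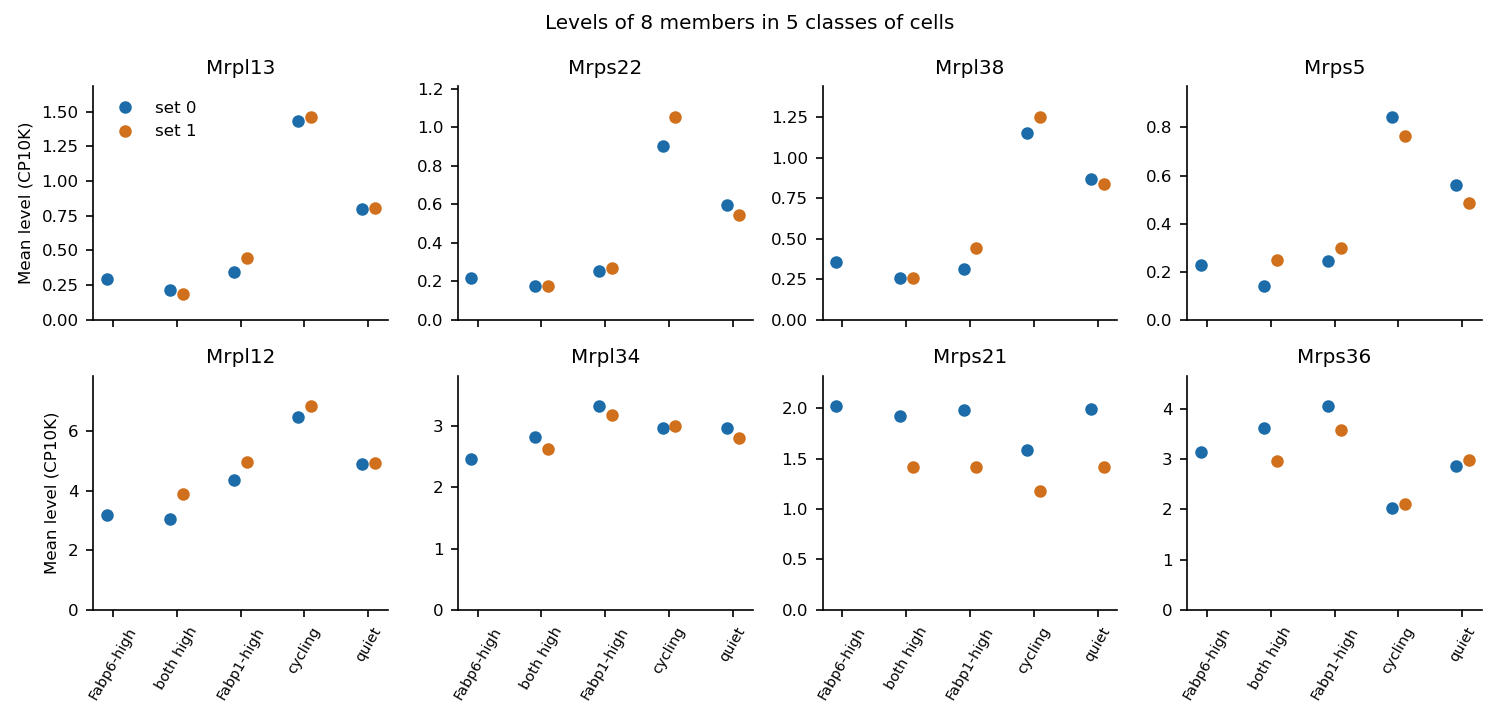
Mean level (y axes, CP10K, from 0) of 8 members in 5 classes of cells (x axis) for set 0 (blue) and set 1 (orange, without shared barcodes, which leaves it 0 Fabp6-high cells). Mrpl13, Mrps22, Mrpl38 and Mrps5 are highest in cycling cells in both sets, Mrps36 is lowest in cycling cells among the classes plotted, and Mrps21 is higher in set 0 in each plotted class that has cells of both sets. Goblet-gene cells are not plotted.

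Markers of other cells also differed between the classes. The 6 enteroendocrine markers summed to 0.0884 CP10K in Fabp1-high cells, 0.190 CP10K in cycling cells and 3.43 CP10K in quiet cells. The 6 mesenchymal markers summed to 0.0162 CP10K in Fabp1-high cells, 1.05 CP10K in cycling cells and 0.283 CP10K in quiet cells, with all 6 above 0 in each. Immune markers, of which 4 of 6 were in the table, summed to 0.0607 CP10K in cycling cells and were at 0 in quiet cells. The part of these markers in the members' levels was not tested either. Cytosolic ribosomal protein transcripts, a large share of a cell's total, summed to 1068 CP10K in Fabp1-high cells, 2442 CP10K in cycling cells and 1965 CP10K in quiet cells, so the total to which levels are scaled differed in makeup. With those, mitochondrial and haemoglobin genes left out of the total, the median of all genes by Fabp1 moved by -0.13, 40 members were lower with Fabp1 above 100, against 28.9% of genes lower and 6.02% higher, and the direction of the members' median held in all 4 comparisons.

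Within a class the sets lay close together for most members. In set 0 over set 1, 0 members differed by 1.5-fold over all cells, with a median log2 ratio of -0.19 (-0.06 over all genes), against 3.60% higher and 2.70% lower among all genes. In cycling cells 0 differed (median -0.08, against -0.06; 2.26% and 2.96% of all genes). In quiet cells 1 was higher, Mrpl52 with 2.56 CP10K in set 0 and 1.68 CP10K in set 1 (0.61; median of members 0.01, against -0.03; 3.08% and 2.74%). In Fabp1-high cells 1 was lower, Mrps28 (-0.61; median of members -0.17, against -0.11; 3.20% and 4.57%). Mrps21 was higher in set 0 in each of these classes, with 1.98 CP10K in set 0 and 1.42 CP10K in set 1 in Fabp1-high cells, 1.58 and 1.18 CP10K in cycling cells and 1.99 and 1.42 CP10K in quiet cells, short of 1.5-fold each time. With 1 set each, library, embryo pool and genotype cannot be told apart.

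Most other lists of mitochondrial gene expression had medians on the members' side, and counts are read against the same 21.0% higher and 19.5% lower of all genes. The 9 mitochondrial ribosome proteins with other symbols (such as Dap3, Ptcd3 and Chchd1) had a median log2 ratio of 0.55 with Mki67+Top2a above 2 over 0, and 4 of them were higher. Ptcd3 averaged 0.346 CP10K above 2 and 0.161 CP10K at 0 (1.06). Of 18 factors that assemble the mitochondrial ribosome, 9 were higher and 1 lower (median 0.73); Mrm3, which methylates mitochondrial ribosomal RNA, averaged 0.222 and 0.0615 CP10K (1.70), and Nsun4, another methyltransferase of that RNA, 0.236 and 0.564 CP10K (-1.22). Of 17 translation factors, 2 were higher and 0 lower (0.32), namely Tsfm, an elongation factor with 0.882 and 0.327 CP10K (1.41), and Tufm with 0.653 and 0.389 CP10K (0.73). Of 14 mitochondrial aminoacyl-tRNA synthetases, 5 were higher and 1 lower (0.63); Yars2 averaged 0.189 and 0.0537 CP10K (1.64) and Iars2 0.765 and 2.02 CP10K (-1.39). Of 11 genes of mitochondrial transcription and replication, 6 were higher and 1 lower (0.63). Tfam, which packs mitochondrial DNA and acts in its transcription, averaged 0.747 and 0.308 CP10K (1.25). Of 21 import and chaperone genes, 7 were higher and 0 lower (0.55), led by Timm50 (1.33) and Hspd1, the mitochondrial chaperonin, with 11.1 and 4.50 CP10K (1.30).

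The respiratory chain genes, which include those translated in mitochondria, had medians on the other side of 0 from the members by Mki67+Top2a and by Fabp1, but by Fabp6 the nuclear ones lay on the members' side. Of 78 nuclear respiratory chain and ATP synthase genes, 0 were higher and 3 lower with Mki67+Top2a above 2 (median log2 ratio -0.16, and 0.00 under the other total), and 1 was higher and 0 lower with Fabp1 above 100 (median 0.26, and 0.11 under the other total). With Fabp6 above 50, 1 was higher and 0 lower, but 68 of the 78 lay below 0 (median -0.28, against -0.54 for the members). Among the 13 proteins encoded by mitochondrial DNA, 0 were higher and 1 lower with Mki67+Top2a above 2 (median -0.33), mt-Co1 with 48.1 CP10K above 2 and 78.9 CP10K at 0 (-0.72). With Fabp1 above 100 their median was 0.29 (0.16 under the other total), and none of the 13 differed by 1.5-fold. With Fabp6 above 50 it was 0.05 (-0.01 under the other total). The proteins of the cytosolic ribosome went with the members: 63 of 86 were higher with Mki67+Top2a above 2 (median 0.88) and 73 of 86 lower with Fabp1 above 100 (-0.94). Genes of nucleolar ribosome biogenesis had larger ratios, with 14 of 14 higher (median 1.97) and 14 of 14 lower (-1.75). With goblet genes above 30 the lists divided: 48 of 78 nuclear respiratory chain genes were lower (-0.69), while the median was 0.29 for cytosolic ribosomal proteins and -0.27 for the members. Of all genes, 21.0% were higher and 19.5% lower by Mki67+Top2a, and 7.66% and 21.1% by Fabp1. By Fabp6 these shares were 4.87% and 9.46%, and by goblet genes 17.1% and 13.7%. These lists carry no test against each other.

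**Figure D4:**
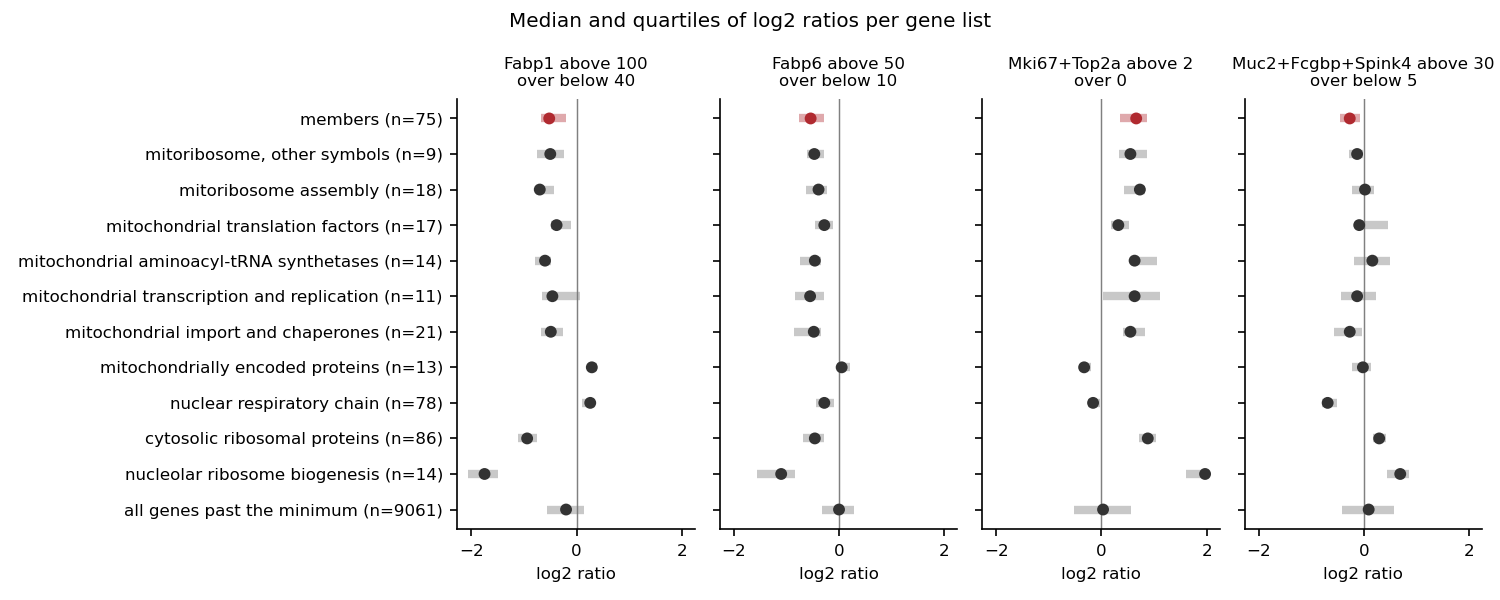
Median (points) and lower to upper quartile (bars) of log2 ratios over the genes of each list (rows, with the number of genes) in the 4 comparisons (panels; x axis, log2 ratio). The members, in red, have medians of -0.52, -0.54, 0.66 and -0.27, and the respiratory chain lists lie at 0.29 and 0.26 by Fabp1, on the other side of 0.

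Among 9 regulators of mitochondrial biogenesis, 2 were higher and 1 lower with Mki67+Top2a above 2 (median 0.17). Nrf1, whose product binds the NRF1 motif, averaged 0.175 CP10K above 2 and 0.0838 CP10K at 0 (0.98), and Gabpb1, a subunit of an ETS-family factor, 0.105 and 0.050 CP10K (0.94). Ppargc1a, a coactivator of mitochondrial biogenesis, averaged 0.0506 and 0.147 CP10K (-1.37). All 3 lie near the minimum level.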

How the data were processed

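Values are a signal per gene and cell that the authors deposited in 1 table of both libraries, linear and scaled to 10000 per cell; Scanpy 1.6.0, Salmon 0.14.1 and alevin appear in the submitters' processing notes, with the build GRCm38. No source used here states filters on cells or doublets, and no doublet caller was run. UMIs were recovered as multiples of each cell's most frequent nonzero value (94.9% of values whole within 0.01 in the median cell, 84.3% in the lowest). Fractions remain where a read was divided between genes. Means, log2 ratios (0.01 added) and exact Poisson 95% intervals were computed with Python 3.11.15, numpy 2.4.6 and scipy 1.17.1, and checked on simulated data. Cells are not replicates, so no test was made between cells. No cell was assigned to a library.

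Members and lists were chosen with earlier results of these data known. Named members are the 10 highest and 5 lowest in level, the 5 highest and 5 lowest ratios of each comparison, those opposite to the median past 1.5-fold, and Mrps30, Mrps36, Mrpl12, Mrpl58 and Mrpl23; Mrps21, Mrpl52 and Mrps28 between sets, and examples within classes and lists, were chosen after their values were seen. Alternatives varied the scaling, cells, sets, minimum level and fold.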

Additional observations from a re-analysis of the deposited data

Results flagged for a closer look

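Columns of 4 pseudogenes named after members held transcripts, although the symbol rule leaves them out. Mrpl23-ps1 had 34083 summed UMIs, a mean of 1.16 CP10K beside 1.51 CP10K for Mrpl23, so the level of Mrpl23 is uncertain. Mrpl48-ps had 54 UMIs, Mrps36-ps2 had 28 and Mrps36-ps1 had 27, which is small beside their parent genes.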

How the results depend on the processing

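No paired analysis was possible because each genotype has 1 library and no cell is tied to a library. The log2 ratio of the summed members kept its sign under every alternative run, for all 4 groupings. By Fabp1 (-0.34) it was -0.49 under the total without mitochondrial, ribosomal protein and haemoglobin genes, -0.35 without shared barcodes in either set, -0.32 in set 0, -0.36 in set 1, -0.33 under a stricter filter on cells, -0.34 without the 5% of cells with most UMIs, -0.21 in cells with Mki67+Top2a at 0 and goblet genes below 5, -0.39 with Fabp6 below 10 and -0.36 with 15000 to 30000 UMIs, a band chosen after seeing the data. By Fabp6 (-0.43) the same order gave -0.52, -0.45, -0.41, -0.59 and -0.44, then -0.35 in non-cycling cells, -0.34 with Fabp1 at or above 40, -0.45 in the depth band and -0.41 from summed UMIs. By Mki67+Top2a (0.49) it was 0.65, 0.50, 0.54, 0.45 and 0.46, then 0.29 with Fabp1 below 40 and Fabp6 below 10, 0.53 in the depth band and 0.51 from summed UMIs. By goblet genes (-0.28) it was -0.18 from summed UMIs, -0.24 under the other total, -0.25 under the stricter filter, -0.56 with Fabp1 below 40 and Fabp6 below 10, and -0.09 in the depth band.

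Counts of members moved more. By Fabp1 (25) they were 40 under the other total, 13 in non-cycling cells without goblet genes, 14 at a minimum level of 0.5 and 7 at 2-fold. Of all genes, 28.9% were lower under the other total and 14.9% in those non-cycling cells. At the higher minimum, 483 of 2606 genes were lower. At 2-fold 9.08% of all genes were lower, so the share of members there was close to the background. By Fabp6 (23, all lower) they were 48 in set 1, which has 27 cells above 50, and 11 in the same non-cycling cells. They were 5 with Fabp1 at or above 40, 13 at the higher minimum and 4 at 2-fold. Of all genes, 27.0%, 4.97%, 3.66%, 10.3% and 4.19% were lower, in the same order. By Mki67+Top2a (39, 38 higher and 1 lower) they were 4 with Fabp1 below 40 and Fabp6 below 10. They were 23 at the higher minimum and 5 at 2-fold. Of all genes, 9.49%, 17.7% and 10.5% were higher and 16.9%, 26.5% and 10.3% lower, in the same order. By goblet genes (6, 2 higher and 4 lower) they were 2 from summed UMIs, 16 in set 0 and 13 in set 1. They were 23 with Fabp1 below 40 and Fabp6 below 10, and 0 at 2-fold. Of all genes, 14.7%, 25.4%, 27.3%, 12.6% and 7.22% were higher, in the same order. The shares lower were 9.07%, 20.9%, 24.1%, 14.4% and 5.55%. In the depth band the count was 1, a higher member, which turned the balance of directions (7.97% of all genes higher and 6.81% lower). The cause was not tested. Of 522 values of named members under alternatives, 0 changed sign past the fold, but not all stayed the same. Those that moved without such a reversal were 68 by Fabp1, 58 by Fabp6, 54 by Mki67+Top2a and 20 by goblet genes. Depth limits what can be said of members of low level and of the 97 cells with goblet genes above 30. Under the other total, 27.2% of genes were higher and 15.4% lower by Mki67+Top2a, against 21.0% and 19.5%.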

Other observations

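Because Mrps36 is known as a subunit of the 2-oxoglutarate dehydrogenase complex, the other subunits of that complex were read beside it, chosen after its values were seen. Ogdh, its first catalytic subunit, averaged 1.68 CP10K in Fabp1-high cells and 0.512 CP10K in cycling cells of set 0, and 1.53 and 0.523 CP10K in set 1. Its log2 ratio with Mki67+Top2a above 2 over 0 was -1.20 (-1.34 in set 0 and -1.15 in set 1). Dlst, the second subunit, had a ratio of -0.82 (-0.87 in set 0 and -0.75 in set 1), and Mrps36 had -0.70. Dld, which several other complexes share, had 0.06 (0.11 and 0.03). With Fabp1 above 100 over below 40, the ratios were 0.77 for Ogdh, 0.52 for Dlst, 0.48 for Mrps36 and 0.00 for Dld. In both comparisons Mrps36 lay on the side of Ogdh and Dlst, and most ribosome members lay on the other.

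Mrpl53 had a value above 0 in 87.1% of cells at a mean of 0.536 CP10K, against 64.0% for Mrpl49 at 0.503 CP10K. Exons of Gm42688 reach into the end of Mrpl53 on the same strand. The length of overlap was not measured, and its part in this contrast was not tested.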
